A study of Mus musculus with 11 samples.

Results

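The D cyclins, the kinases they activate, the inhibitors of these complexes and Rb1 were examined in the gonadal white adipose tissue (WAT) of mice on a fat-rich diet. The 10 genes (Ccnd1, Ccnd2, Ccnd3, Cdk4, Cdk6, Cdkn1a, Cdkn1b, Cdkn1c, Cdkn2c and Rb1) were chosen by name out of 12787 listed genes, with the results of this same comparison known, so their differences between the groups, the intervals and the calls below describe these mice and are not independent evidence that the genes differ. All 10 were listed. RNA was sequenced from male C57Bl6/J mice with no transgene or deleted allele named in the labels. All mice were fed a 60% high fat diet (HFD) for 20 weeks, 5 with the vehicle (HFD) and 6 with 0.06% w/w iodomethylcholine (HFD + IMC), a small molecule that blocks the gut bacterial enzyme making trimethylamine (TMA) from choline. A control mouse was dropped by the authors for quality and is not among the 5. The comparison asks which mRNAs of this adipose depot differ between HFD-fed mice with and without IMC. The paper reports that IMC on this diet also lowered weight gain, fat mass and fed plasma insulin, and altered the cecal microbiome. These differences and the lower TMA cannot be told apart here. The age of these mice at the start of the diet is not given in the labels, and neither is the cage of each mouse, although mice of the study were housed in groups.

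D cyclins are made in response to growth signals and bind Cdk4 or Cdk6. The active kinase phosphorylates the retinoblastoma protein Rb1, which then releases E2F transcription factors that drive the genes of DNA replication. INK4 proteins such as Cdkn2c (p18) bind Cdk4 and Cdk6 and keep D cyclins off, while the Cip/Kip proteins Cdkn1a (p21), Cdkn1b (p27) and Cdkn1c (p57) bind whole cyclin and kinase complexes. In adipose tissue these genes are known for the division of precursor cells at the onset of fat cell formation, and several of them are also expressed in mature fat cells, which do not divide.

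The promoters of 3 genes that differed between the groups are shown here because they are the called genes with an entry in the promoter table: each had a window with a GC box, and none of these windows held an E2F site of the kinds searched. The reference promoter table of RefSeq (GRCm38.p6, which is mm10) held 6 of the 10 genes (Ccnd3, Cdk4, Cdk6, Cdkn1a, Cdkn1b and Cdkn2c). Each line gives the 250 bases before the transcription start, 5′ to 3′ on the strand of the gene, with the capitals marking matches to the motifs searched. The windows lie at chr10:127063285-127063534 on the plus strand for Cdk4, at chr6:134920151-134920400 on the plus strand for Cdkn1b and at chr4:109666757-109667006 on the minus strand for the first start of Cdkn2c.
Cdk4: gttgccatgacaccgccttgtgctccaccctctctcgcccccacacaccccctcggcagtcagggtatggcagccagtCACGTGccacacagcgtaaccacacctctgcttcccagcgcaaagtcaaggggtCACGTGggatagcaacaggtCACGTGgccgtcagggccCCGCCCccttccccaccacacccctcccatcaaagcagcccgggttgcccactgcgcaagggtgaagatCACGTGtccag
Cdkn1b: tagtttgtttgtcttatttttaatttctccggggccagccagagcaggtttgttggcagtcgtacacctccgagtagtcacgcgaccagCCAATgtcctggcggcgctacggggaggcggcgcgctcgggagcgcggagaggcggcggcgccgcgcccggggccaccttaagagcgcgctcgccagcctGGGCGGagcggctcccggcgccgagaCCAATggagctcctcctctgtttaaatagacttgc
Cdkn2c: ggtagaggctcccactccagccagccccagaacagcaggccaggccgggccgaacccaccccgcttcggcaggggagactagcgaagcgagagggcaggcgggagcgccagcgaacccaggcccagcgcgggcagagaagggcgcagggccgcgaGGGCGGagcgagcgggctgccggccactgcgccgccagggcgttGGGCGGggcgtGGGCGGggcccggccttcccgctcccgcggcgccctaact
The motifs were searched on both strands as the GC box (GGGCGG), the CCAAT box (CCAAT), the E box (CACGTG), E2F sites (TTTCCCGC and TTTGGCGC), the AP-1 site (TGANTCA) and the TATA box (TATAAA), and none of the marked matches overlap. The Cdk4 window held 4 E boxes, the sequence bound by Myc and its relatives, and 1 GC box. An E box was present in 6.02% of all 32851 promoter windows of this length, and 7 of these windows (0.0213%) held at least 4. The Cdkn1b window held 2 CCAAT boxes and 1 GC box, and the Cdkn2c window held 3 GC boxes. A second start of Cdkn2c, whose window at chr4:109665373-109665622 is not printed, had none of the motifs and a GC content of 42.8%. GC boxes were found in 32.7% of all windows, CCAAT boxes in 33.8%, TATA boxes in 12.4%, AP-1 sites in 6.75% and the E2F sites in 0.895% and 0.417%. Among the uncalled genes, Ccnd3 and Cdkn1a also had a window with a GC box and Cdk6 did not. No window of the 6 genes held one of these E2F sites, so neither trait sets the called genes apart. The GC content was 64.4% for Cdk4, 64.4% for Cdkn1b and 77.2% for the first start of Cdkn2c, beside a median of 52.4% over all windows. A match describes the letters only, and binding was not measured.

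Values are log2 CPM, read counts relative to the scaled library size on a log2 scale, as the authors deposited them. Depth was similar in all mice, with 22320022 to 25155366 reads on listed genes. A gene was called when its adjusted p was under 0.05 in limma with Benjamini-Hochberg adjustment over all genes. By this rule 7 of the 10 genes were called, 3 higher in HFD + IMC (Ccnd2, Cdkn2c and Rb1) and 4 lower (Ccnd1, Cdk4, Cdkn1b and Cdkn1c). Of all listed genes 40.9% were called, 20% higher and 21% lower, and nothing is read from the count of 7 because this contrast was known when the genes were chosen. The 2 groups did not overlap for 6 of the 10 genes (3 higher and 3 lower), as was true of 23.1% of all genes. The median log2 fold change of the 10 genes was -0.20 and their median size was 0.35, beside -0.03 and 0.17 for all genes. None of the 10 differed by more than 1 on the log2 scale.

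Whole tissue was sequenced, so fewer cells of a type and less RNA per cell cannot be told apart. Marker genes of several cell types differed between the groups. All 8 adipocyte markers were called higher in HFD + IMC, with a summed level of 9579 to 13652 CPM in HFD mice and 18842 to 22926 CPM in IMC-treated mice. Of 9 listed macrophage markers 8 were called lower (7889 to 10499 CPM against 4525 to 7084 CPM), as were 5 of 5 mast cell markers (344 to 774 CPM against 114 to 216 CPM) and 4 of 8 fibroblast or progenitor markers (8548 to 10940 CPM against 6531 to 8675 CPM). Of 7 endothelial markers 2 were called higher (418 to 584 CPM against 478 to 678 CPM), and of 4 listed mesothelial markers 1 was called lower (196 to 274 CPM against 92.3 to 221 CPM). Of all genes 20% were called higher and 21% lower, so no difference is read from these endothelial and mesothelial counts. The summed ranges overlapped for both, and also for the fibroblast or progenitor markers. None of 7 T or B cell markers and none of 5 epididymis or gonad markers was listed. The part of these cell types in the differences below was not tested.

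Among the D cyclins, Ccnd2 was higher and Ccnd1 lower in HFD + IMC, and the third, Ccnd3, was not called. Ccnd2 (chr6:127125162-127152188, mm10) stood at 7.78, 8.02, 7.82, 7.87 and 7.92 log2 CPM in the 5 HFD mice and at 8.70 to 8.95 log2 CPM in the 6 IMC-treated mice, with a median of 8.78. Every IMC-treated mouse was well above every HFD mouse, and the gap between the groups was 0.68, several times the SD of either group (0.09 and 0.10). The log2 fold change was 0.92 ± 0.06 (SE, n = 5 and 6), with a 95% interval from 0.80 to 1.05, or a 1.89-fold level. By the size of its fold change Ccnd2 ranked 284 among all 12787 genes.

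Ccnd1 (chr7:144929931-144939831, mm10), the D cyclin best known as a target of growth factor signals, stood at 6.92, 6.78, 7.17, 6.98 and 6.89 log2 CPM in HFD mice and at 6.33 to 6.72 log2 CPM, median 6.64, in IMC-treated mice. The groups did not overlap, but the highest IMC-treated mouse was only 0.06 below the lowest HFD mouse. For Ccnd1 the log2 fold change was -0.36 ± 0.08 (SE), with a 95% interval from -0.53 to -0.19, or a CPM lower by 22.1%. Ccnd3 (chr17:47505051-47599689, mm10) stood at 6.27, 6.30, 6.14, 6.14 and 6.48 log2 CPM in HFD mice and at 6.11 to 6.61 log2 CPM, median 6.41, in IMC-treated mice. The 2 groups spanned nearly the same range, and 1 IMC-treated mouse was above all HFD mice while another was below all of them. Its log2 fold change was 0.13 ± 0.08 (SE), with a 95% interval from -0.05 to 0.31. Bysl, on the opposite strand and overlapping Ccnd3, was not called either (0.11 ± 0.06 SE, adjusted p = 0.163 by limma).

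**Figure D1:**
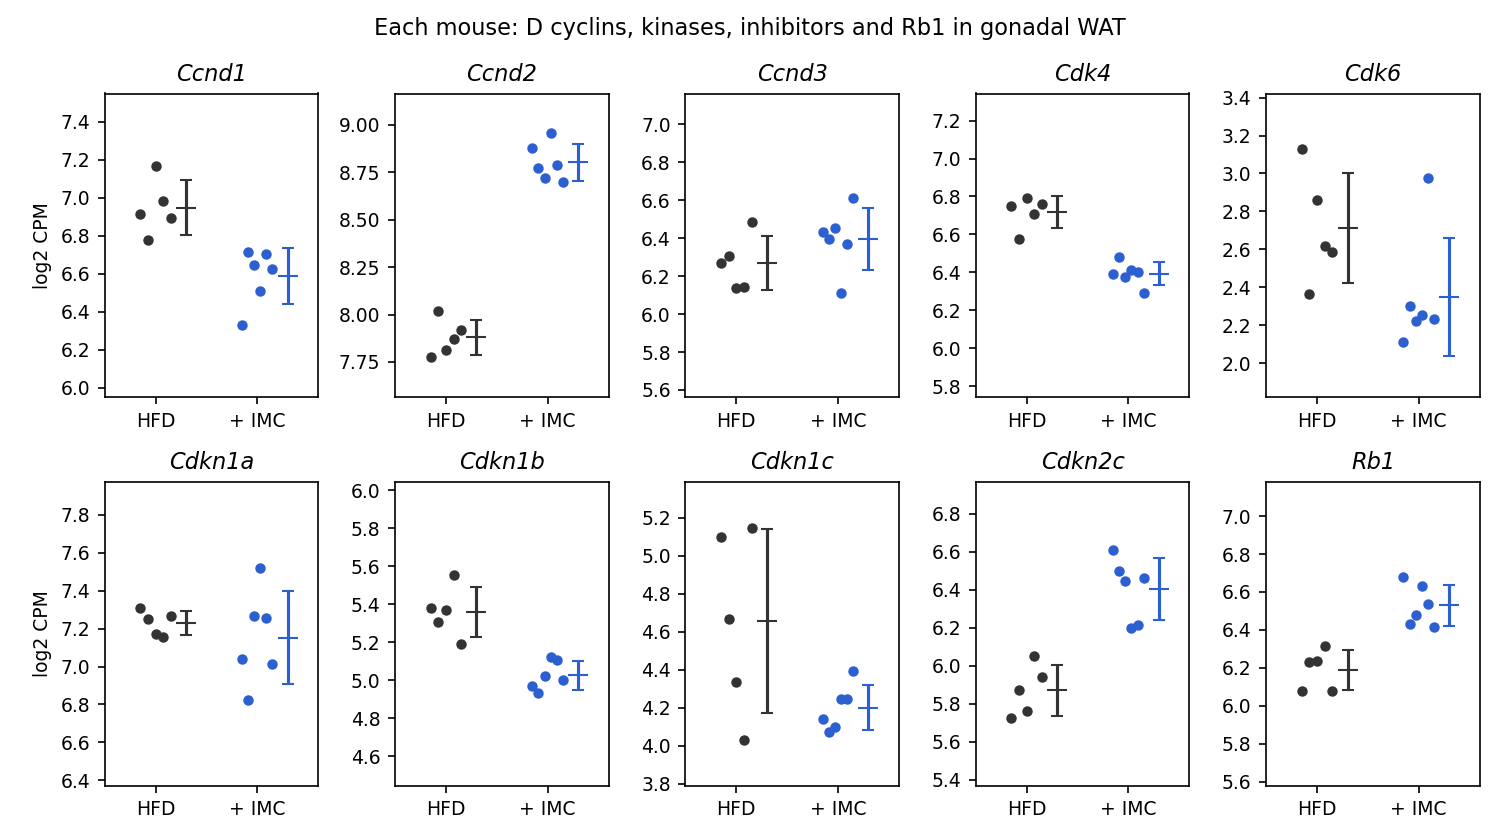
Log2 CPM (vertical axis, the same span in each panel) of each of the 10 genes in 5 HFD mice (dark points) and 6 HFD + IMC mice (blue points), with the mean and SD of each group beside the points. Ccnd2 shows the widest gap between the groups, 0.68, and the groups overlap for Ccnd3, Cdk6, Cdkn1a and Cdkn1c.

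The make-up of D cyclin mRNA differed between the groups. Per kb of annotated exon, Ccnd2 made up 41.7% ± 2.82 (SD, n = 5) of the summed D cyclin level in HFD mice. In the IMC-treated mice its share was 61.1% ± 3.41 (SD, n = 6), and the ranges did not overlap (38.3% to 46.0% against 57.9% to 65.9%). Ccnd1 made up 43.7% ± 3.77 (SD) in HFD mice and 26.4% ± 2.57 (SD) in IMC-treated mice, also without overlap. The share of Ccnd3 was 14.6% ± 1.53 (SD) and 12.4% ± 1.57 (SD), and the groups overlapped. These shares depend on the exon length used. In CPM with no length correction Ccnd2 was the leading D cyclin in both groups, with 53.9% ± 2.47 (SD) and 71.1% ± 2.95 (SD).

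**Figure D2:**
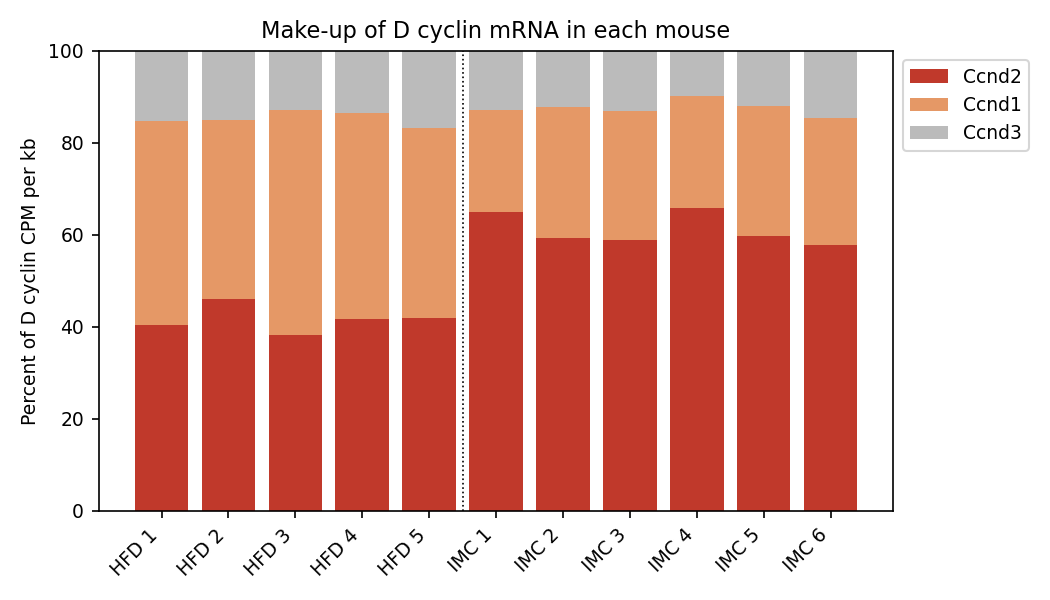
Stacked bars give the percent of summed D cyclin CPM per kb of exon (vertical axis) that came from Ccnd2, Ccnd1 and Ccnd3 in each of the 5 HFD and 6 HFD + IMC mice. Ccnd2 runs from 38.3% to 46.0% in HFD mice and from 57.9% to 65.9% in HFD + IMC mice.

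The difference between Ccnd1 and Ccnd2 within a mouse, which needs no scaling between libraries, was -0.93 ± 0.22 log2 CPM in HFD mice (SD, n = 5). It was -2.21 ± 0.22 log2 CPM with IMC (SD, n = 6). The difference between Ccnd1 and Ccnd3 was 0.68 ± 0.26 (SD) and 0.19 ± 0.20 (SD). In both cases the groups did not overlap. The summed D cyclin level was 5.91 ± 0.04 (SD) log2 CPM per kb in HFD mice and 6.28 ± 0.03 (SD) in IMC-treated mice, so the mRNA of the 3 cyclins together was higher in every IMC-treated mouse.

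Of the partner kinases, Cdk4 was the abundant one and was lower in HFD + IMC. Cdk4 (chr10:127063535-127067288, mm10), whose promoter with 4 E boxes is printed above, stood at 6.75, 6.58, 6.79, 6.71 and 6.76 log2 CPM in HFD mice and at 6.29 to 6.48 log2 CPM, median 6.40, in IMC-treated mice. All IMC-treated mice were below all HFD mice, by 0.09 at the nearest, and HFD mouse 2 was the lowest of its group. For Cdk4 the log2 fold change was -0.32 ± 0.05 (SE), with a 95% interval from -0.43 to -0.22, or a CPM lower by 20.1%. Tspan31, a gene on the opposite strand whose span overlaps that of Cdk4, also fell (log2 fold change -0.18 ± 0.04 SE, adjusted p = 0.00282 by limma). Whether the exons of the 2 genes overlap was not examined. The strand used in counting is not given in the sources used here. How reads from the overlap were counted is therefore not known, and both levels may be affected.

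Cdk6 (chr5:3341004-3531008, mm10) had only 99 to 194 reads per mouse. It stood at 3.13, 2.36, 2.86, 2.62 and 2.59 log2 CPM in HFD mice and at 2.11 to 2.98 log2 CPM, median 2.24, in IMC-treated mice. IMC-treated mice other than mouse 5 were below all HFD mice, while mouse 5 was above all but 1 of them. The log2 fold change was -0.36 ± 0.17 (SE), with a 95% interval from -0.72 to -0.004, and the gene was not called. Without IMC-treated mouse 5 the log2 fold change was -0.49 and the gene was called. Cdk4 exceeded Cdk6 by 4.01 ± 0.24 (SD) log2 CPM in HFD mice and by 4.04 ± 0.31 (SD) in IMC-treated mice, and these groups overlapped.

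Cdkn2c, the INK4 inhibitor p18 and the only one of its family among the 10 genes, was higher in HFD + IMC. Cdkn2c (chr4:109660876-109666756, mm10) stood at 5.73, 5.87, 5.76, 6.05 and 5.94 log2 CPM in HFD mice and at 6.20 to 6.61 log2 CPM, median 6.45, in IMC-treated mice. The groups did not overlap and the gap was 0.15, with IMC-treated mice 4 and 5 closest to the HFD mice. Its log2 fold change was 0.54 ± 0.08 (SE), with a 95% interval from 0.36 to 0.71, or a 1.45-fold level. No other gene overlaps it in the annotation.

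Of the Cip/Kip inhibitors, Cdkn1b and Cdkn1c were called lower and Cdkn1a was not called. Cdkn1b, or p27 (chr6:134920401-134925525, mm10), stood at 5.38, 5.31, 5.37, 5.55 and 5.19 log2 CPM in HFD mice and at 4.93 to 5.12 log2 CPM, median 5.01, in IMC-treated mice. The groups did not overlap, with HFD mouse 5 nearest to the IMC-treated mice by 0.07. This gave a log2 fold change of -0.33 ± 0.06 (SE), with a 95% interval from -0.47 to -0.20. Cdkn1b likewise overlaps no other annotated gene.

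Cdkn1a, or p21, the inhibitor best known as a p53 target (chr17:29090979-29100722, mm10), stood at 7.31, 7.25, 7.17, 7.16 and 7.26 log2 CPM in HFD mice and at 6.83 to 7.52 log2 CPM, median 7.15, in IMC-treated mice. The HFD mice were close together (SD 0.06), whereas the IMC-treated mice spread on both sides of them (SD 0.24), with 1 above and 3 below the range of the HFD mice. The log2 fold change was -0.08 ± 0.10 (SE), with a 95% interval from -0.29 to 0.13. Cdkn1c, or p57, an imprinted gene (chr7:143458339-143461059, mm10), showed the opposite spread. It stood at 5.10, 4.67, 4.34, 4.03 and 5.15 log2 CPM in HFD mice (SD 0.48) and at 4.07 to 4.40 log2 CPM, median 4.19, in IMC-treated mice (SD 0.12). HFD mice 1, 2 and 5 were above all IMC-treated mice, while HFD mouse 4 was below all of them. The log2 fold change was -0.46 ± 0.17 (SE), with a 95% interval from -0.83 to -0.08, and the call was lost when any one of HFD mice 1, 2 and 5 or IMC-treated mice 1 to 5 was left out (log2 fold changes from -0.47 to -0.33).

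Within the Cip/Kip family, Cdkn1a made up 66.0% ± 2.72 (SD, n = 5) of the summed level per kb of exon in HFD mice and 71.1% ± 3.01 (SD, n = 6) with IMC. The shares of Cdkn1b were 14.2% ± 2.31 (SD) and 12.7% ± 1.06 (SD), and those of Cdkn1c were 19.8% ± 4.86 (SD) and 16.1% ± 2.10 (SD). The groups overlapped for all 3 shares and also for the summed level, which was 6.00 ± 0.12 (SD) and 5.82 ± 0.19 (SD) log2 CPM per kb. Cdkn1a exceeded Cdkn1b by 1.87 ± 0.18 (SD) log2 CPM in HFD mice and by 2.13 ± 0.18 (SD) in IMC-treated mice, again with overlap.

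Rb1, the substrate of the D cyclin kinases (chr14:73192858-73325951, mm10), stood at 6.08, 6.23, 6.24, 6.32 and 6.08 log2 CPM in HFD mice and at 6.42 to 6.68 log2 CPM, median 6.51, in IMC-treated mice. The groups did not overlap, and the gap was 0.10. Its log2 fold change was 0.34 ± 0.06 (SE), with a 95% interval from 0.21 to 0.47, or a 1.27-fold level. Rcbtb2 and Lpar6 lie on the opposite strand and overlap Rb1. Rcbtb2 also rose (log2 fold change 0.30 ± 0.06 SE, adjusted p = 0.00166 by limma), and Lpar6 was not called (0.07 ± 0.08 SE, adjusted p = 0.464 by limma). As with Cdk4, how reads from the overlap were counted is not known.

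**Figure D3:**
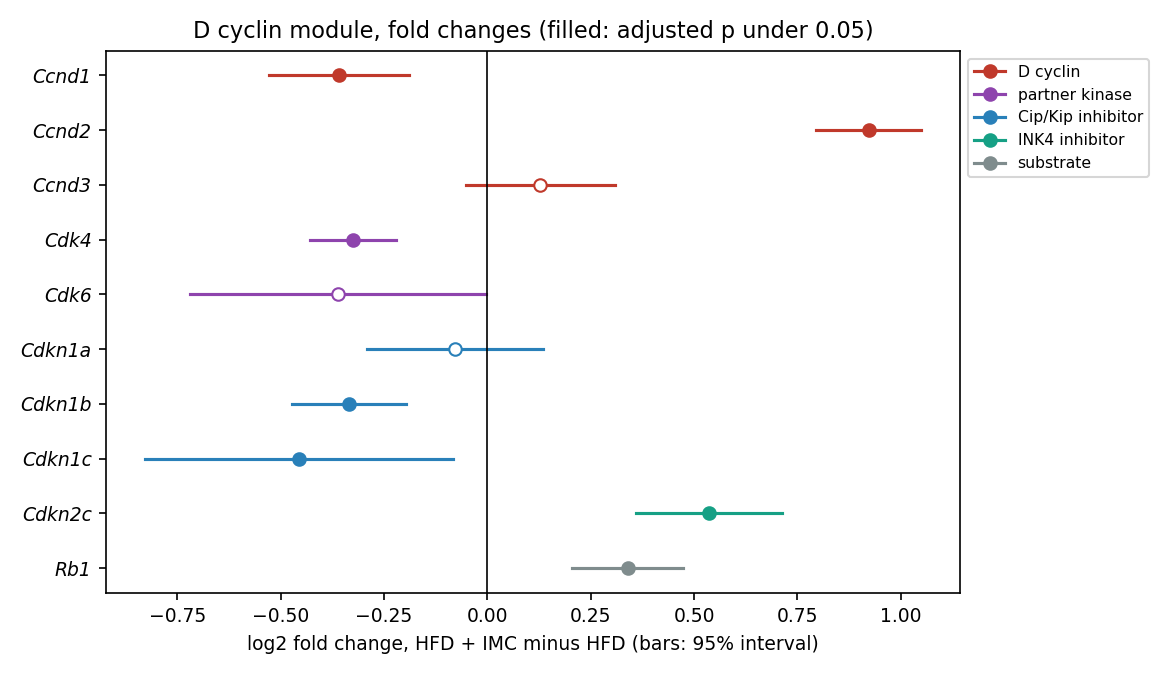
Log2 fold change of HFD + IMC against HFD (horizontal axis) for the 10 genes, coloured by role, with the 95% interval as a bar and filled points for genes with an adjusted p under 0.05. Ccnd2 (0.92), Cdkn2c (0.54) and Rb1 (0.34) lie to the right of 0, and Ccnd1, Cdk4, Cdkn1b and Cdkn1c lie between -0.46 and -0.32.

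Levels were compared between genes per kb of annotated exon. In HFD mice Cdkn1a was the most abundant at 5.40 log2 CPM per kb, ahead of Cdk4 (5.02), Ccnd1 (4.71), Ccnd2 (4.65) and Cdkn2c (4.45). Cdkn1c (3.63), Rb1 (3.60), Cdkn1b (3.17) and Ccnd3 (3.13) were lower on this scale, and Cdk6 was far below the others (-1.09). The ranges over mice overlapped between the neighbours from Cdk4 down to Cdkn2c, between Cdkn1c and Rb1, and between Cdkn1b and Ccnd3. Within each HFD mouse, however, Cdk4 was above Ccnd1, Ccnd2 and Cdkn2c, and Ccnd2 was above Cdkn2c. The order of the other neighbours with overlapping ranges varied between mice. In IMC-treated mice Ccnd2 came first at 5.57 log2 CPM per kb, followed by Cdkn1a (5.32), Cdkn2c (4.98) and Cdk4 (4.69), with overlapping ranges between neighbours. Even so, Ccnd2 was above Cdkn1a and Cdkn2c was above Cdk4 in every IMC-treated mouse, while the order of Cdkn1a and Cdkn2c varied. Ccnd1 (4.35) and Rb1 (3.94) stood apart from their neighbours, Ccnd3 (3.26) and Cdkn1c (3.17) overlapped, and Cdkn1b (2.84) and Cdk6 (-1.46) came last. The exon length counts every annotated isoform, so a gene whose tissue isoform is shorter, such as one with a long annotated 3′ end, would be placed too low.

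**Figure D4:**
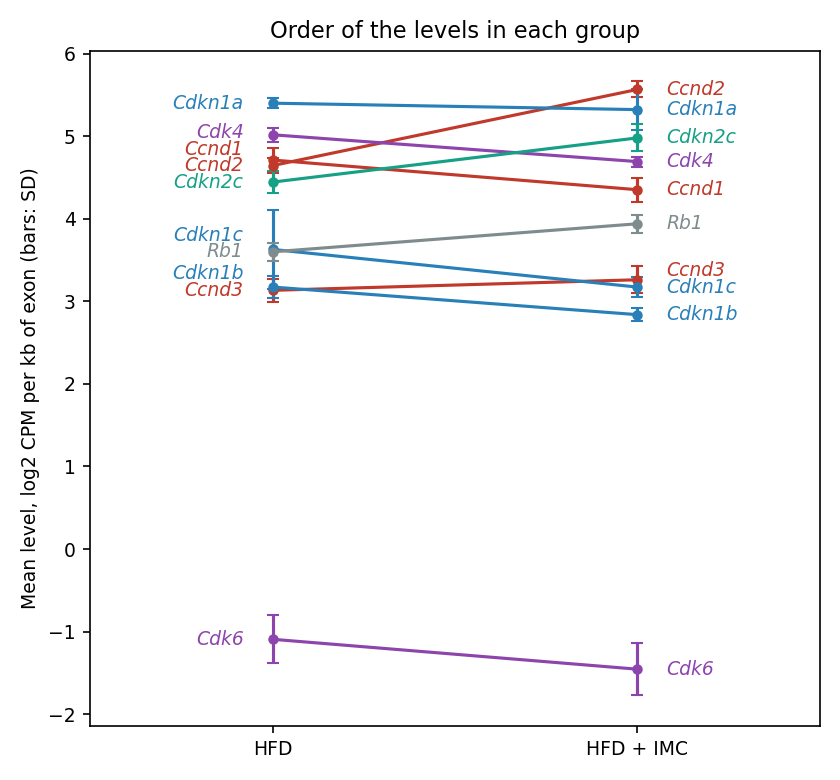
Mean level in log2 CPM per kb of exon (vertical axis, bars are SD) of the 10 genes in HFD mice (left) and HFD + IMC mice (right), coloured by role and joined by lines. Ccnd2 moves from 4.65 in HFD mice, below Ccnd1, to 5.57 in HFD + IMC mice, above all others, and Cdk6 is lowest in both groups.

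Variation between mice of the same group was compared for all 45 pairs of the 10 genes, after subtracting each group mean (n = 11 mice). Pearson's r ran from -0.70 to 0.60 with a median of -0.10, and 16 pairs were above 0. By an exact permutation test over all 86400 orders of mice within their groups (two-sided), 6 pairs had p under 0.05 and none did after Benjamini-Hochberg adjustment over the 45 pairs (smallest adjusted p = 0.349). By Spearman's rho 4 pairs had p under 0.05 and again none after adjustment. By r the pair farthest from 0 was Ccnd3 and Cdkn1b, with r = -0.70 (exact permutation p = 0.0167) and rho = -0.71 (exact permutation p = 0.0267), and r = -0.53 without the 2 mice farthest from the median of Ccnd3. By rho it was Cdkn1a and Cdkn2c (rho = -0.74, exact permutation p = 0.029).

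The genes most like each D cyclin in this variation within groups were taken from the whole table. Their correlations are a description over 11 mice that share libraries and scaling. Choosing the highest r out of so many genes gives high values by itself, so no relation is read from these genes. For Ccnd2 they were Fam98a (r = 0.97, rho = 0.97), Irs3 (r = 0.96, rho = 0.92), an insulin receptor substrate of rodent adipose tissue, and Ms4a8a (r = 0.93, rho = 0.89). Fam98a and Irs3 were also called higher in HFD + IMC, as were 20% of all genes, with log2 fold changes of 0.26 ± 0.05 and 0.73 ± 0.09 (SE). For Ccnd1 they were Pdzd4 (r = 0.96, rho = 0.97), Osbpl3 (r = 0.95, rho = 0.95) and Btbd9 (r = 0.94, rho = 0.95), none of which was called. For Ccnd3 they were Trabd2b (r = 0.97, rho = 0.95), Crtc3 (r = 0.94, rho = 0.93) and Klhdc3 (r = 0.94, rho = 0.94), and Trabd2b was called higher (0.57 ± 0.18 SE). When 2 mice were left out for each D cyclin, r stayed between 0.89 and 0.97 for these 9 genes. They were the mice farthest from its median over all 11 mice, before group means were subtracted. For Ccnd2 these were HFD mice 1 and 3, set apart by the group difference. The check therefore does not show whether r rests on mice far from their own group mean.

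The surrounding pathway was described with 8 lists of genes acting above or below the D cyclin kinases, of which 89 of 91 genes were listed. Of these, 17 were called higher, 23 lower and 49 were not called, with a median log2 fold change of -0.09. The 40 called were 44.9% of the 89, close to the 40.9% of all genes, and the shares called higher (19.1%) and lower (25.8%) were near the 20% and 21% of all genes. Of the 40 called, 24 were called in every fit that left out 1 mouse. The call was lost in 1 to 4 of the 11 such fits for Ccna2, Cdk1, Rrm1, Cdc6, Trp53 and Klf15. It was lost in 6 to 9 of them for Rbl2, Cdkn2d, Cdc25b, Mnat1, Ccnh, Ccng1, Sesn1, Fos, Klf4 and Egr1. These calls therefore depend on which mice are included. Genes named below beyond the 3 with the smallest p in each list were chosen after their values were seen.

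Among the other INK4 inhibitors and Rb relatives, 1 of 5 genes rose and 2 fell (20% and 40%, beside 20% and 21% of all genes). Cdkn2a, which encodes p16 and p19Arf, fell by 0.80 ± 0.24 (SE) on the log2 scale (adjusted p = 0.0168 by limma) at a low level of 1.24 ± 0.38 and 0.44 ± 0.45 log2 CPM (SD), and Cdkn2d, or p19, fell by 0.25 ± 0.09 (SE) (adjusted p = 0.0461 by limma). Both are INK4 genes like Cdkn2c, which was higher. Rbl2, the Rb relative p130, rose by 0.12 ± 0.04 (SE) (adjusted p = 0.0408 by limma). Of 10 E2F and DP genes 1 rose and 2 fell (10% and 20%, not above the shares of all genes). E2f1, an activator of replication genes, fell by 0.31 ± 0.08 (SE) (adjusted p = 0.0066 by limma), E2f4 fell by 0.22 ± 0.06 (SE) (adjusted p = 0.016 by limma), and the DP partner Tfdp2 rose by 0.29 ± 0.07 (SE) (adjusted p = 0.00692 by limma).

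Of 17 replication genes that E2F is known to induce, 4 fell, none rose and 13 were not called. The share called lower, 23.5%, was near the 21% of all genes. All 17 fold changes were below 0 (median -0.16, beside -0.03 for all genes). These signs come from the same mice and are not separate results. Pcna, the sliding clamp of DNA polymerase, fell by 0.45 ± 0.07 (SE) (adjusted p = 0.00033 by limma), and the others were the helicase subunit Mcm6 (-0.32 ± 0.08 SE), the loading factor Cdc6 (-0.32 ± 0.10 SE) and the ribonucleotide reductase subunit Rrm1 (-0.21 ± 0.06 SE). Of 10 later cyclins, kinases and phosphatases 3 fell (30%, beside 21% of all genes) and none rose. The 3 were Ccna2 (-0.29 ± 0.09 SE, adjusted p = 0.021 by limma), Cdk1 (-0.27 ± 0.09 SE, adjusted p = 0.0229 by limma) and Cdc25b (-0.25 ± 0.09 SE, adjusted p = 0.0314 by limma). Beside these, 3 of 7 markers of dividing cells fell, where 21% of all genes were called lower. All 7 fold changes were below 0, and these signs too come from the same mice and are not separate results. The summed level of these markers was 209.7 to 266.7 CPM in HFD mice and 161.3 to 221.5 CPM in IMC-treated mice, with overlap. Cdk1 and Ccnb1 are on this list and on that of the later cyclins. Of the 3 subunits of the kinase that activates Cdk4 and its relatives, Mnat1 and Ccnh rose (66.7%, beside 20% of all genes). Mnat1 rose by 0.23 ± 0.08 (SE) (adjusted p = 0.0432 by limma) and Ccnh by 0.18 ± 0.07 (SE) (adjusted p = 0.0445 by limma). The catalytic subunit Cdk7 was not called (0.08 ± 0.06 SE, adjusted p = 0.27 by limma).

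Genes for the turnover of D cyclin and p27 proteins were called higher in 6 of 13 cases and lower in 1. The shares were 46.2% and 7.69%, beside 20% and 21% of all genes. The list was chosen with earlier results of these data known, so nothing is read from these counts. Cryab, a small heat shock protein described as a cofactor of the Fbxo4 ubiquitin ligase, rose by 1.21 ± 0.10 (SE) (adjusted p = 2.3e-05 by limma), and Fbxo4 itself rose by 0.31 ± 0.07 (SE). Cul4a (0.21 ± 0.04 SE) and Ddb1 (0.20 ± 0.04 SE), parts of a ligase for D cyclins, rose, as did the kinase Gsk3b (0.21 ± 0.05 SE) and the ligase subunit Skp1a (0.23 ± 0.05 SE). Skp2, which marks p27 for destruction, fell by 0.45 ± 0.11 (SE) (adjusted p = 0.0059 by limma). Ambra1, Cul1, Cul4b, Fbxo31, Cks1b and Rbx1 were not called. Protein levels were not measured.

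Of 14 listed genes made of Trp53 and its known targets besides Cdkn1a, 4 rose and 5 fell (median -0.06). The shares were 28.6% and 35.7%, beside 20% and 21% of all genes. Sesn2 (0.73 ± 0.12 SE), Tnfrsf10b (0.51 ± 0.12 SE), Phlda3 (0.46 ± 0.09 SE) and Ccng1 (0.30 ± 0.10 SE) rose. Gdf15 (-0.83 ± 0.21 SE), Plk2 (-0.56 ± 0.13 SE), Bax (-0.51 ± 0.06 SE), Sesn1 (-0.32 ± 0.11 SE) and Trp53 itself (-0.16 ± 0.05 SE) fell, so the targets moved both ways while Cdkn1a was not called.

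Of 17 listed transcription factors known to act on D cyclin or Cip/Kip genes, 3 rose and 6 fell. The shares were 17.6% and 35.3%, beside 20% and 21% of all genes. Those that fell were Myc (-0.44 ± 0.07 SE, adjusted p = 0.00061 by limma), Jun (-0.40 ± 0.07 SE, adjusted p = 0.000922 by limma), Junb (-0.68 ± 0.14 SE), Fos (-0.46 ± 0.16 SE), Egr1 (-0.52 ± 0.20 SE) and Klf4 (-0.27 ± 0.10 SE). Those that rose were Foxo1 (0.42 ± 0.11 SE), Foxo4 (0.24 ± 0.04 SE, adjusted p = 0.000533 by limma) and Klf15 (0.52 ± 0.16 SE). Their relatives on the list, Foxo3 (-0.10 ± 0.08 SE), Klf9 (-0.07 ± 0.11 SE), Fosl1 (-0.24 ± 0.20 SE) and Fosl2 (-0.14 ± 0.08 SE), were not called.

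**Figure D5:**
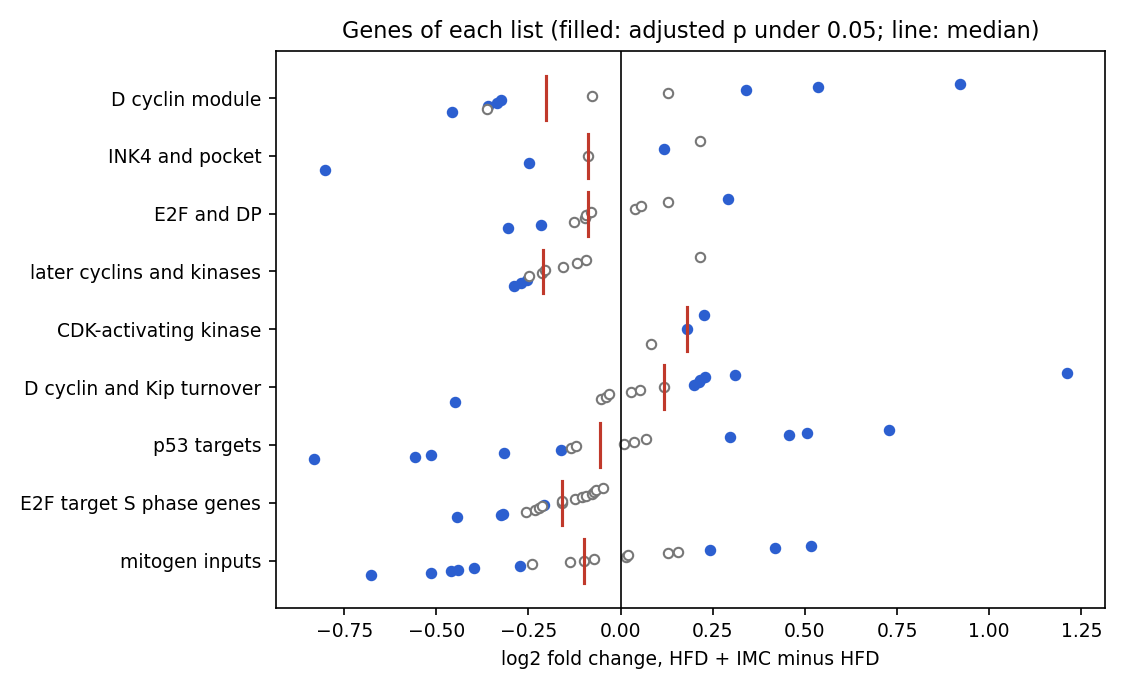
Log2 fold change of HFD + IMC against HFD (horizontal axis) for the genes of each list, with filled points for an adjusted p under 0.05 and a red line at the median of the list. The 17 E2F target S phase genes all lie below 0 with a median of -0.16, beside -0.03 for all genes, while the p53 targets lie on both sides.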

How the data were processed

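RNA from the gonadal WAT of 11 male mice was sequenced, 1 library per mouse. After trimming (Trim Galore), the authors used STAR for alignment to mm10 (UCSC annotation) and for counts per gene, removed transcripts with few reads and scaled the libraries by the upper quartile in edgeR. They deposited log2 CPM values for 12787 genes. The table also holds the authors' own comparison as log2 fold change, mean log2 CPM, a likelihood-ratio score, p-value and FDR, and these deposited columns were not used.

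Groups came from the treatment label of each sample. Because the unit is log2 CPM, the groups were compared with limma 3.58.1 in R 4.3.3 (lmFit, then eBayes with a trend), on group alone, without a further filter and Benjamini-Hochberg adjustment over all 12787 genes. The step was run on simulated data with independent mice and a much smaller share of changed genes than was called here. That run checks the code and not these p-values. Whole reads were recovered from the steps of the values within each mouse (100% whole within 0.1) and served for depth and alternatives. Reads are not independent molecules, so depth speaks of counting error only. The p-values set the group difference against the spread between mice of a group, each taken as independent. Labels do not tie mice to cages, so an effect of shared cages cannot be told apart from that of the group. The p-values may then be too small.

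The 10 genes and all lists were chosen with earlier results of these data known. Named genes are the 10, the 3 genes of each pathway list with the smallest p, and the 3 genes of the whole table with the highest r to each D cyclin. Other pathway genes were named after their values were seen. Exon lengths and overlaps came from GENCODE M21 (GRCm38), where 8 of the 10 genes are overlapped by another gene, and coordinates from RefSeq. For Ccnd1, Ccnd2, Cdk6, Cdkn1a and Cdkn1c no overlapping gene was listed under its annotated name. How reads from these overlaps were counted is not known either.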

Additional observations from a re-analysis of the deposited data

Results flagged for a closer look

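A mouse stood far from the rest of its group in 4 of 94 group values examined (Dixon's test at the 95% level), and chance alone flags about 1 in 20 groups. Cdk6 in IMC-treated mouse 5 was at 2.98 log2 CPM, while the other IMC-treated mice lay between 2.11 and 2.30. The difference between Cdk4 and Cdk6 in the same mouse was 3.43 log2 CPM, beside 4.06 to 4.28 in the others. Mnat1, a subunit of the CDK-activating kinase, was at 3.68 log2 CPM in HFD mouse 2 and at 3.86 to 3.90 in the other HFD mice. Foxo4 was at 5.40 log2 CPM in HFD mouse 1 and at 5.49 to 5.51 in the other HFD mice.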

How the results depend on the processing

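Ccnd1, Ccnd2, Cdk4, Cdkn1b, Cdkn2c and Rb1 were called in the same direction under all 17 alternatives, and Ccnd3 and Cdkn1a were called under none. Cdkn1c kept its direction but was not called under limma voom on recovered reads (-0.45), limma without the trend (-0.46) or median-of-ratios scaling (-0.45). Leaving out each mouse in turn gave Cdkn1c log2 fold changes from -0.61 to -0.33, with the call lost in 8 of 11 fits. For Cdk6 these ran from -0.49 to -0.26, and it was called only without IMC-treated mouse 5. The cause was not tested. Leaving out mice gave 6 or 7 of the 10 genes called, 28 to 38 pathway genes and 4299 to 5125 genes in all. The median of all genes was -0.03, and -0.06 with total-count scaling, under which 2203 of 5464 called genes were higher, against 2556 of 5236, and 14 of 40 called pathway genes, against 17 of 40. No paired analysis was possible because the labels give the groups no shared replicate numbers. Depth limits Cdk6, with 99 to 194 reads per mouse.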
